A study of Mus musculus with 9 samples.

Results

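The 7 cadherin genes Cdh2, Cdh3, Cdh4, Cdh6, Cdh11, Cdh13 and Cdh15 were followed in cells sorted from mouse somites. They were listed by name, with earlier results of these data known, as cadherins outside the epithelial and endothelial ones, and every probe set annotated to 1 of them was read. Cdh3 is in the list although it is also known from epithelia. A probe set is a group of short array probes that together give 1 value for a transcript. There were 16 such probe sets for the 7 genes, of 45037 probe sets for 18193 named genes. Expression was measured on Affymetrix mouse arrays in RNA of sorted cells, in 3 groups of 3 samples and 9 in all. The dissection, between the limbs at embryonic day 9.5, aimed at the hypaxial dermomyotome.

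The first group, PAX3-FKHR/GFP, was GFP+ cells of embryos in which 1 Pax3 allele carried GFP and the other produced PAX3-FKHR, a fusion of the DNA binding part of PAX3 with the activation domain of the forkhead factor FKHR (FOXO1). The second group, GFP/+, was GFP+ cells of embryos with 1 GFP allele and 1 normal Pax3 allele. The third group, GFP-, was cells without GFP fluorescence from the same region, and the labels give no Pax3 genotype for it. The study's methods take these cells from GFP/+ embryos where they describe the comparisons, but name a Pax3 +/+ group where they list the hybridised arrays. Every GFP+ sample therefore carried a Pax3 allele disrupted by GFP. According to the study's methods, the fusion allele also carried an IRES-nlacZ reporter and was made active by a widely expressed PGK-Cre transgene that the mothers carried. Whether the GFP/+ embryos had inherited that transgene is not given in the sources used here. The methods describe tissue pooled from embryos of 1 genotype on a mixed C57 BL6/DBA2 background, and the study allows that Pax3 positive neural crest cells were present. The treatment protocol in the labels names forelimb buds, whereas titles, source and tissue all name somites.

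Values are log2 units as deposited, so a difference of 1 is a doubling. Errors after ± are SDs over n = 3 samples for a level and standard errors of the fit for a difference. A probe set was called when the limma fit across all probe sets gave an adjusted p under 0.05 and a difference of at least 0.5 log2 units (1.41-fold). The study's methods call the samples of a group biological replicates and do not say whether each was a separate pool of embryos, and p-values measure the spread between these samples. In sorted bulk samples, fewer cells of a type and less RNA per cell cannot be told apart.

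The median value per array lay between 4.63 and 4.68. Arrays of 1 group correlated at 0.996 to 0.998 over all probe sets, against 0.987 to 0.996 between groups. Pax3 itself, read from its brightest probe set, was 4.70 ± 0.138 log2 units higher in GFP/+ than in GFP- cells, which is the direction of the sort. With PAX3-FKHR it differed from GFP/+ by -0.91 ± 0.084 (limma, adjusted p = 0.000215). Of the dermomyotome markers measured, all 9 were called higher in GFP/+ than in GFP- cells. Pax3, whose locus drove the sort, is 1 of them. Of the surface ectoderm and endoderm markers 7 of 8 were called lower in GFP/+ than in GFP- cells. So were 5 of 6 erythroid and 7 of 10 lateral and intermediate mesoderm markers. Comparisons with GFP- cells therefore do not stay within the dermomyotome.

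Cadherins are calcium-dependent adhesion molecules that bind like molecules on the neighbouring cell, and the classical ones are tied to actin through catenins on their cytoplasmic tail. Cdh2 (N-cadherin), Cdh3 (P-cadherin), Cdh4 (R-cadherin) and Cdh15 (M-cadherin) are classical cadherins. Cdh6 (K-cadherin) and Cdh11 (OB-cadherin) are classical cadherins too, of the type II group. Cdh13 (T-cadherin) lacks a cytoplasmic tail and is held to the membrane by a lipid anchor. The dermomyotome is an epithelium, and its cells leave it to form muscle, so that the cadherins on their surface are part of how they hold together and come apart. M-cadherin is known from myoblasts, where it is present at their contacts.

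The sequence before the start of a gene is shown for 2 of the 7 genes. Windows on 1 chromosome were passed over in this step, for a reason not given here. No member without a call, such as the bright Cdh2, is shown for comparison. The motif counts below therefore cannot be set against the calls. The windows shown are those of Cdh15 and Cdh6, also the 2 genes called higher in GFP/+ than in GFP- cells. These windows are RefSeq sequences in build GRCm38.p6, from 250 bases before to 50 bases after the start, and are given because paired-domain, homeodomain and E-box binding factors are studied at such sites in muscle progenitors. The capitals mark E-boxes (CANNTG), the letters bound by the myogenic determination factors and their relatives. The Cdh15 window lies on the plus strand at chr8:122848124-122848423, and the Cdh6 window on the minus strand at chr15:13173626-13173925.
Cdh15: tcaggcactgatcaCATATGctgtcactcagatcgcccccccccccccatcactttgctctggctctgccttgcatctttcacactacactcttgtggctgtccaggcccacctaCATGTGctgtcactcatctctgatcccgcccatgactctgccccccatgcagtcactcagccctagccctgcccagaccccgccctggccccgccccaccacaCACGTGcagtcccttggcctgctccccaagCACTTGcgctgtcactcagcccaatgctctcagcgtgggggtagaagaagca
Cdh6: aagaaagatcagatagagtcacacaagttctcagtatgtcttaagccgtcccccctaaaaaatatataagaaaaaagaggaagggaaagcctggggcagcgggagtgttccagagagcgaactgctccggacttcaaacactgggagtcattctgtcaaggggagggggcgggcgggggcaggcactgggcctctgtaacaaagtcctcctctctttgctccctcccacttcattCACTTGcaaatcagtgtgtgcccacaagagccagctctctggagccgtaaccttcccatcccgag
The Cdh15 window held 4 E-boxes, reading CATATG, then CATGTG, then CACGTG, then CACTTG, of which 3 lay before the start. An E-box reads as CANNTG on both strands. The Cdh6 window held 1, with the letters CACTTG. Of 32851 such windows 72.3% held at least 1 E-box, and 6.49% held 4 or more. GTCAC, the core of paired-domain sites, was counted on both strands and overlapped no E-box here. It occurred 4 times in the Cdh15 window, 3 of them before the start, and 1 time in the Cdh6 window. At least 1 GTCAC was present in 45.6% of all windows and 4 or more in 0.715%. In the Cdh15 window each of the 4 opened the same longer run, gtcactca, so they are repeats of like letters. The share over all windows takes no account of such repeats. ATTA, the core of homeodomain sites, occurred 0 times in either window and was present in 58% of all windows. These are matches of letters in a short window, and no binding was measured.

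Cdh15 was the cadherin with the largest differences of the 7, and its 3 groups were fully separated. In PAX3-FKHR/GFP cells probe set 1418602_at read 7.47, 7.49 and 7.59 in replicates 1 to 3 (mean 7.52 ± 0.067). In GFP/+ cells it read 6.89, 6.99 and 7.04 (6.97 ± 0.079). In GFP- cells it read 4.55, 4.38 and 4.76 (4.56 ± 0.187). The order PAX3-FKHR/GFP, GFP/+, GFP- held without overlap, and the GFP- samples lay near the median of their arrays, 2 of them below it.

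In the GFP sort, GFP/+ against GFP- cells, Cdh15 differed by 2.41 ± 0.102 log2 units, or 5.32-fold (95% interval 4.54 to 6.23, limma, adjusted p = 2.08e-07). With PAX3-FKHR it rose by a further 0.54 ± 0.081, or 1.46-fold (1.29 to 1.65, adjusted p = 0.00554). Against GFP- cells the PAX3-FKHR/GFP samples were 2.95 ± 0.101 higher, or 7.75-fold (6.64 to 9.05, adjusted p = 6.55e-09). The rise with PAX3-FKHR was the least secure of these. Its adjusted p was 0.0520, at a difference of 0.557, when PAX3-FKHR/GFP replicate 2 was left out, and 0.0502, at 0.551, when GFP/+ replicate 2 was. Over all single samples left out, its difference ranged from 0.501 to 0.580. It also lay under a limit of 1.5-fold (0.585 log2 units), at which 0 of the 16 cadherin probe sets were called with PAX3-FKHR.

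Markers of other cells moved with this result. Of the 8 differentiated muscle markers, 7 were called lower with PAX3-FKHR, and their mean log2 level ranged from 6.10 to 6.27 in PAX3-FKHR/GFP, from 7.52 to 7.61 in GFP/+ and from 4.72 to 4.89 in GFP- samples. Cdh15 thus moved the opposite way to these muscle genes with PAX3-FKHR and the same way in the GFP sort. Among the 9 dermomyotome markers 5 were called higher and 2 lower (Pax3 and Sim1) with PAX3-FKHR. Their mean level ranged from 8.48 to 8.73, from 8.18 to 8.23 and from 5.47 to 5.48 in the same groups. This list cannot measure the amount of dermomyotome. Pax3 is the gene that was replaced and sorted on. The study reports Met, Lbx1, Myf5, Pax7 and Tcf15 as raised by PAX3-FKHR and Sim1 as lowered. Of 7 neural crest markers 5 were called higher in GFP/+ than in GFP- cells, Sox10 by 3.43 ± 0.089 and Foxd3 by 3.21 ± 0.141. With PAX3-FKHR 1 of the 7, Tfap2b, was called higher. The mean level of the crest list ranged from 8.23 to 8.38, from 8.03 to 8.15 and from 6.29 to 6.41.

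Lists of cells that are not of the dermomyotome or crest moved too. Of the 7 sclerotome markers, genes of the somite part that forms cartilage, 1 was called higher with PAX3-FKHR (Uncx, by 0.73 ± 0.093) and 2 lower (Pax1, by -0.57 ± 0.086, and Foxc2, by -0.56 ± 0.100), and neither of these 2 was called at a limit of 1.5-fold. In GFP/+ against GFP- cells 4 of the 7 were called higher and 0 lower, and their mean level ranged from 7.16 to 7.26 in PAX3-FKHR/GFP, from 7.28 to 7.30 in GFP/+ and from 5.86 to 5.89 in GFP- samples. Of 8 neural tube markers 1 was called higher (Dbx1, by 2.38 ± 0.091) and 2 lower (Pax6 and Neurog2) with PAX3-FKHR. Among 6 erythroid markers the embryonic globin Hbb-y was called higher with PAX3-FKHR, by 0.65 ± 0.093, and 5 were called lower in GFP/+ than in GFP- cells. With GFP/+ replicate 2 or 3 left out, the brightest probe sets of Pax1, Foxc2, Neurog2 and Hbb-y each lost their call with PAX3-FKHR (limma, adjusted p from 0.0530 to 0.155). Without PAX3-FKHR/GFP replicate 2 the calls of Pax1, Foxc2 and Hbb-y were lost (0.0709, 0.151 and 0.0632), without GFP/+ replicate 1 those of Foxc2 and Neurog2 (0.100 and 0.0575), and without PAX3-FKHR/GFP replicate 1 that of Foxc2, at -0.481. As means over their probe sets Pax1 and Pax6 were under the limit, at -0.468 and -0.190. The mean level of the erythroid list ranged from 6.51 to 6.58, from 6.21 to 6.30 and from 10.26 to 10.33 in the same groups. Of 10 lateral and intermediate mesoderm markers 0 were called with PAX3-FKHR, where 3 passed an unadjusted p under 0.05, and 7 were called lower in GFP/+ than in GFP- cells. Their mean level ranged from 4.48 to 4.53, from 4.52 to 4.57 and from 6.502 to 6.579. The part of any of these cells in the cadherin values was not tested.

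**Figure D1:**
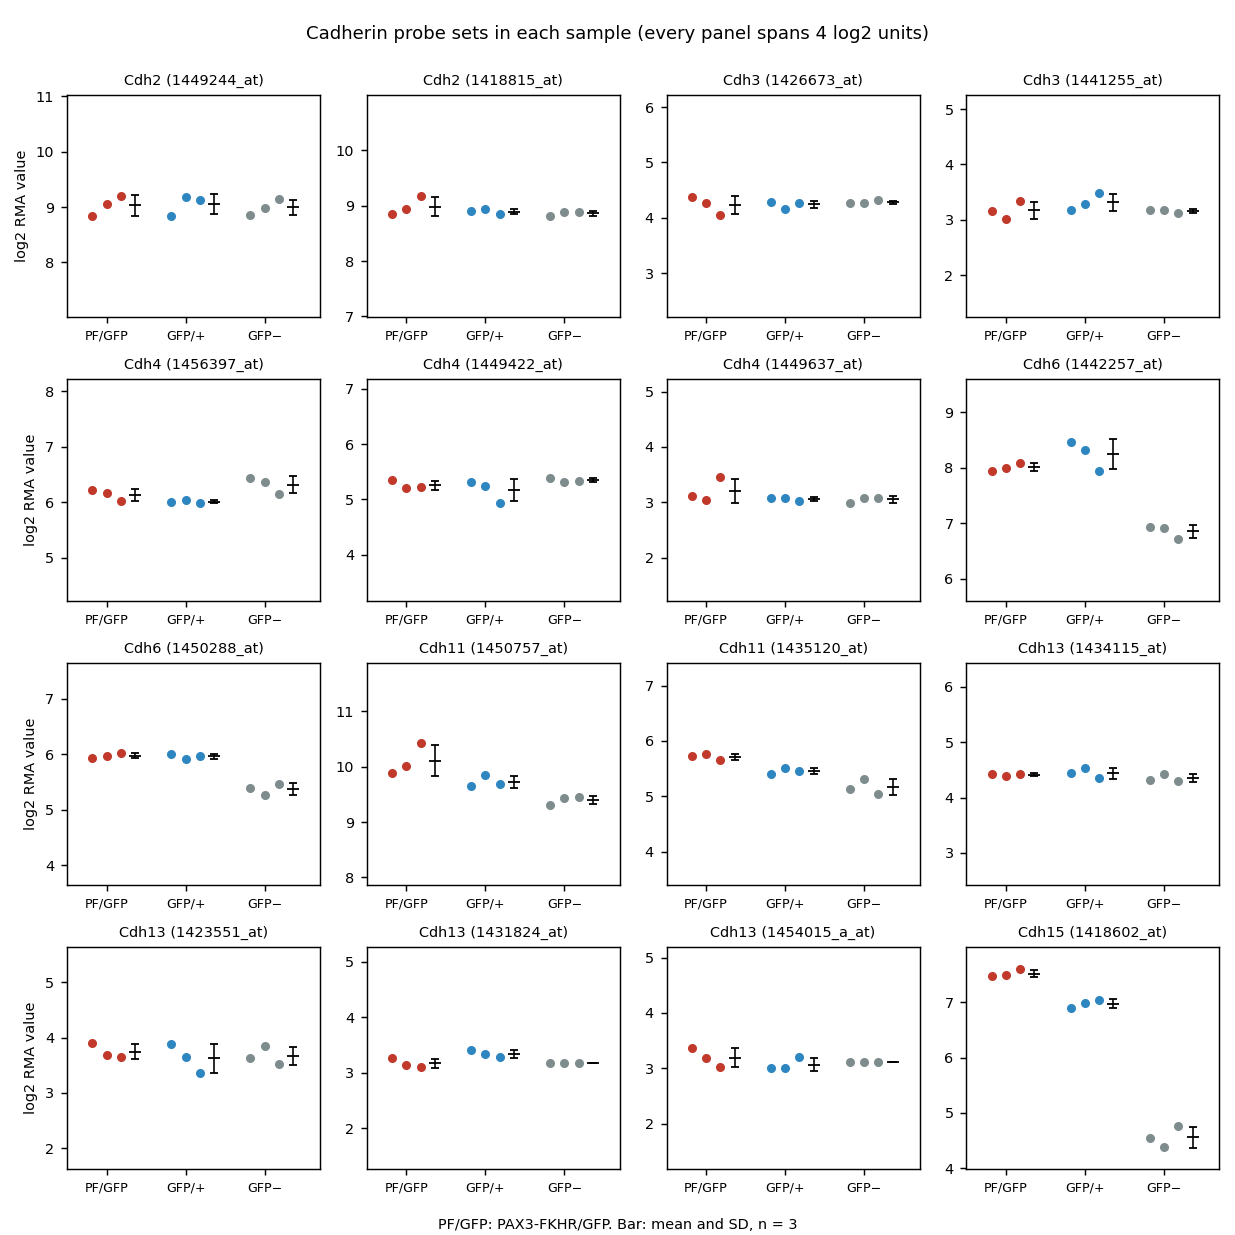
Log2 RMA value of each of the 16 cadherin probe sets (panels) in each sample (points, replicates 1 to 3 from left to right), with the group mean and SD (bars, n = 3). Every panel spans 4 log2 units at its own height, so distances but not heights can be set side by side; PF/GFP stands for PAX3-FKHR/GFP. Cdh15 separates all 3 groups, from 4.56 in GFP- to 7.52 in PAX3-FKHR/GFP cells, both Cdh6 probe sets set GFP- apart, and both Cdh11 probe sets step down from left to right.

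Cdh6 was higher in both GFP+ groups than in GFP- cells and did not pass the test with PAX3-FKHR. Its brighter probe set, 1442257_at, read 7.94, 8.005 and 8.09 in PAX3-FKHR/GFP, 8.47, 8.32 and 7.94 in GFP/+, and 6.93, 6.92 and 6.72 in GFP- samples. The GFP+ groups overlapped, and both lay above every GFP- sample. The GFP/+ samples spread most, with an SD of 0.273 against 0.075 in PAX3-FKHR/GFP. The difference between GFP/+ and GFP- cells was 1.39 ± 0.124, or 2.62-fold (2.16 to 3.18, limma, adjusted p = 5.18e-05). That between PAX3-FKHR/GFP and GFP- cells was 1.16 ± 0.084, or 2.23-fold (1.96 to 2.53, adjusted p = 2.95e-06).

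With PAX3-FKHR the value of this probe set was -0.23 ± 0.123 (95% interval -0.50 to 0.04, adjusted p = 0.602). The interval allows a fall as large as the limit for a call and leaves no room for a rise of that size. The dimmer Cdh6 probe set, 1450288_at, read 5.93, 5.97 and 6.02 in PAX3-FKHR/GFP, 6.01, 5.92 and 5.96 in GFP/+, and 5.39, 5.26 and 5.47 in GFP- samples. It showed the same arrangement over a smaller range, with the GFP+ groups overlapping above the GFP- samples. It was 0.59 ± 0.081 higher in GFP/+ than in GFP- cells (limma, adjusted p = 0.00101) and stood 0.60 ± 0.086 above GFP- cells in PAX3-FKHR/GFP (adjusted p = 0.000787). With PAX3-FKHR it differed by 0.007 ± 0.081 (-0.17 to 0.19).

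Cdh11, known as a cadherin of mesenchyme, was ordered like Cdh15 in steps too small to be called between neighbouring groups. Probe set 1450757_at read 9.89, 10.02 and 10.42 in PAX3-FKHR/GFP, 9.64, 9.85 and 9.68 in GFP/+, and 9.31, 9.44 and 9.45 in GFP- samples. Probe set 1435120_at read 5.73, 5.76 and 5.66, then 5.41, 5.52 and 5.46, then 5.14, 5.32 and 5.04 in the same groups. In both, every PAX3-FKHR/GFP sample lay above every GFP/+ sample, and every GFP/+ sample above every GFP- sample. Such an order, without overlap, was found in 465 probe sets, or 1.03% of all those tested.

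Over both steps, PAX3-FKHR/GFP against GFP- cells, Cdh11 was called higher by both probe sets, by 0.71 ± 0.123 (limma, adjusted p = 0.00295) and by 0.55 ± 0.093 (adjusted p = 0.00260). The second fell to 0.489, under the limit for a call, without GFP- replicate 3, and was not called at a limit of 1.5-fold. With PAX3-FKHR against GFP/+ the differences were 0.38 ± 0.129 (0.10 to 0.67, adjusted p = 0.277) and 0.25 ± 0.084 (0.07 to 0.44, adjusted p = 0.271). The SD of the brighter probe set was 0.277 in PAX3-FKHR/GFP cells, more than in the other groups. For GFP/+ against GFP- cells they were 0.33 ± 0.070 (adjusted p = 0.0163, under the limit of 0.5) and 0.30 ± 0.090 (adjusted p = 0.0817). Neither step between neighbours was therefore called by either probe set.

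Cdh2 (N-cadherin), a cadherin of neural tissue and of somites, was read at like levels in all 3 groups. Probe set 1449244_at read 8.84, 9.05 and 9.20 in PAX3-FKHR/GFP, 8.84, 9.18 and 9.13 in GFP/+, and 8.86, 8.98 and 9.14 in GFP- samples. Probe set 1418815_at read 8.84, 8.94 and 9.17, then 8.90, 8.93 and 8.85, then 8.81, 8.89 and 8.88. The groups overlapped in every comparison. For the first probe set the difference with PAX3-FKHR was -0.02 ± 0.116 (95% interval -0.28 to 0.24), and that between GFP/+ and GFP- cells was 0.06 ± 0.100 (-0.17 to 0.28). For the second they were 0.09 ± 0.094 (-0.12 to 0.30) and 0.03 ± 0.054 (-0.09 to 0.15). These intervals exclude a difference of 0.5 log2 units in either direction.

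Cdh4 (R-cadherin), first known from the retina, was not called, and 1 of its 3 probe sets was the only member probe set with every GFP/+ sample below every GFP- sample. Probe set 1456397_at read 6.22, 6.17 and 6.02 in PAX3-FKHR/GFP, 6.01, 6.04 and 5.99 in GFP/+, and 6.44, 6.37 and 6.14 in GFP- samples. The PAX3-FKHR/GFP samples overlapped both other groups. The difference between GFP/+ and GFP- cells was -0.31 ± 0.088 (-0.50 to -0.11, limma, adjusted p = 0.0658). Another probe set, 1449422_at, read 5.35, 5.20 and 5.23, then 5.32, 5.25 and 4.94, then 5.39, 5.32 and 5.34, and its GFP/+ and GFP- samples touched at 5.32. The last, 1449637_at, lay below the array median in all 9 samples.

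Cdh3 (P-cadherin), known from placenta and epithelia, and Cdh13 lay below the array median in all 9 samples with each of their 2 and 4 probe sets, and none was called. The 2 probe sets of Cdh3 gave group means of 4.23 and 3.17 in PAX3-FKHR/GFP, 4.24 and 3.32 in GFP/+, and 4.28 and 3.16 in GFP- cells. The brightest probe set of Cdh13, 1434115_at, read 4.43, 4.39 and 4.43 in PAX3-FKHR/GFP, 4.44, 4.54 and 4.34 in GFP/+, and 4.32, 4.43 and 4.30 in GFP- samples. The label of mesodermal or muscle cadherin thus has little signal behind it for these 2 genes in these cells. For 1 dim probe set of Cdh13, 1431824_at, the GFP/+ samples at 3.41, 3.34 and 3.28 lay above all others, with differences of -0.17 ± 0.078 with PAX3-FKHR (adjusted p = 0.489) and 0.16 ± 0.066 against GFP- cells (adjusted p = 0.203).

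**Figure D2:**
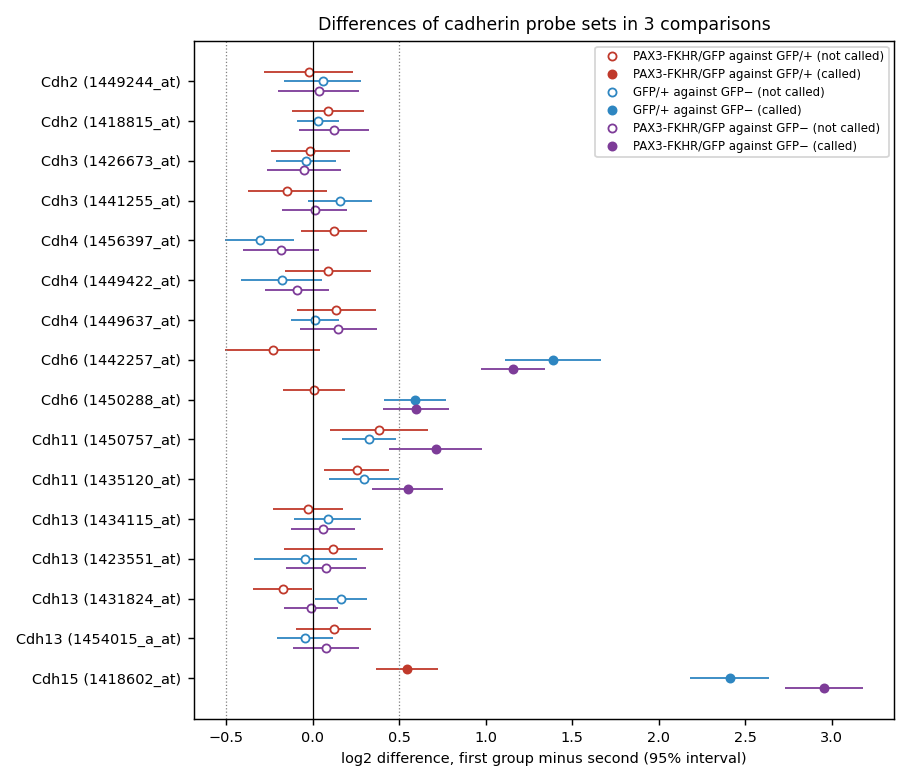
Difference in log2 value (horizontal axis, first group minus second) of each cadherin probe set in the 3 comparisons (colours), with 95% intervals from limma; filled points were called, and the dotted lines mark 0.5 log2 units. Cdh15 is called in each comparison, at 0.54, 2.41 and 2.95, Cdh6 in both comparisons with GFP- cells, Cdh11 in that of PAX3-FKHR/GFP with GFP- cells, and the intervals of Cdh2 lie around 0.

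Counted over the 16 probe sets, 1 was called higher with PAX3-FKHR and 0 lower, against a background of 0.884% and 0.473% of all probe sets. The 1 was Cdh15. At an unadjusted p under 0.05 there were 4 of the 16, against 10.1% of all probe sets. In the GFP sort 3 were called higher and 0 lower, against 1.42% and 3.24%, and between PAX3-FKHR/GFP and GFP- cells 5 were called higher and 0 lower, against 1.99% and 3.36%. The local pooled error test, the study's own method, also called 0 members lower in each comparison. Without overlap of the groups, 3 probe sets were higher and 1 lower with PAX3-FKHR, against 6.4% and 6.72% of all probe sets, and 6 were higher and 1 lower between GFP/+ and GFP- cells, against 12% and 11%. For PAX3-FKHR/GFP against GFP- cells these counts were 5 and 0, against 11% and 10.6%. The median difference over the 16 was 0.09 with PAX3-FKHR, 0.07 between GFP/+ and GFP- cells and 0.08 between PAX3-FKHR/GFP and GFP- cells, beside -0.004, 0.02 and 0.02 over all probe sets. The medians thus stayed near 0 while Cdh15, Cdh6 and Cdh11 made up every call. The 3 comparisons share samples, so their counts are not independent of each other.

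Across the 9 samples the brightest probe sets of Cdh6 and Cdh15 correlated at r = 0.908, those of Cdh11 and Cdh15 at 0.834, and those of Cdh6 and Cdh11 at 0.669. Cdh4 ran against them, at -0.732 with Cdh6 and -0.709 with Cdh15. The 9 samples fall into 3 groups, so these values describe mostly the order of the group means.

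Among the genes whose group means spanned at least 1 log2 unit, 689 for Cdh15, the pattern most like that of Cdh15 was that of Tdrd7, a tudor domain protein (r = 0.999 over 9 samples). Next were Pax7, the paralogue of Pax3 (r = 0.998), and Tfap2b, an AP-2 factor of the neural crest (r = 0.997). Pax7 differed by 0.67 ± 0.087 with PAX3-FKHR and by 3.36 ± 0.085 between GFP/+ and GFP- cells. Tfap2b differed by 0.59 ± 0.084 and 2.19 ± 0.064 in the same comparisons, and Tdrd7 by 0.36 ± 0.087, which was not called (limma, adjusted p = 0.0856), and 1.68 ± 0.084. The call of Tfap2b with PAX3-FKHR was lost without GFP/+ replicate 2 (adjusted p = 0.0533) or replicate 3 (0.0511). The genes most like Cdh15 in these samples thus held a dermomyotome marker as well as a crest marker.

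For Cdh6 the 3 most alike genes were Msx3, a homeobox gene known from the dorsal neural tube (r = 0.985), Sncaip, which encodes the synuclein-binding protein synphilin (0.982), and Depdc7 (0.977), among 689 genes. Like Cdh6, these were called higher in GFP/+ than in GFP- cells, by 1.51 ± 0.100, 1.04 ± 0.096 and 1.29 ± 0.081, and were not called with PAX3-FKHR. Of 8 neural tube markers 1 was called higher and 4 lower in GFP/+ than in GFP- cells, and their mean level reached at most 6.23 in PAX3-FKHR/GFP and 6.10 in GFP/+ samples and ranged from 6.60 to 6.67 in GFP- samples. The part of neural tube cells in the Cdh6 values was not tested.

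For Cdh11 the most alike were Egr3, a zinc finger gene of the early response (r = 0.953), Zfp367 (0.952) and Vat1l (0.9495), among 690 genes. These 3 were called higher with PAX3-FKHR, by 0.84 ± 0.134, 0.73 ± 0.123 and 0.64 ± 0.122, where Cdh11 was not. The calls rested on few samples. Without PAX3-FKHR/GFP replicate 2 their adjusted p was 0.0992, 0.111 and 0.181, and without GFP/+ replicate 3 it was 0.0828, 0.0972 and 0.125. Without GFP/+ replicate 1 it was 0.0649, 0.0726 and 0.122. Egr3 and Vat1l were also lost without PAX3-FKHR/GFP replicate 3 (0.0650 and 0.127), and Zfp367 and Vat1l without GFP/+ replicate 2 (0.0993 and 0.0852). As means over their probe sets Egr3 and Zfp367 differed by 0.404 and 0.397, under the limit. The deposited value of Zfp367 was 7.815 in all 3 GFP/+ samples, so its spread there was 0. Identical values in all 3 samples were found for 353, 395 and 449 probe sets in PAX3-FKHR/GFP, GFP/+ and GFP- cells. How they arose was not tested.

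**Figure D3:**
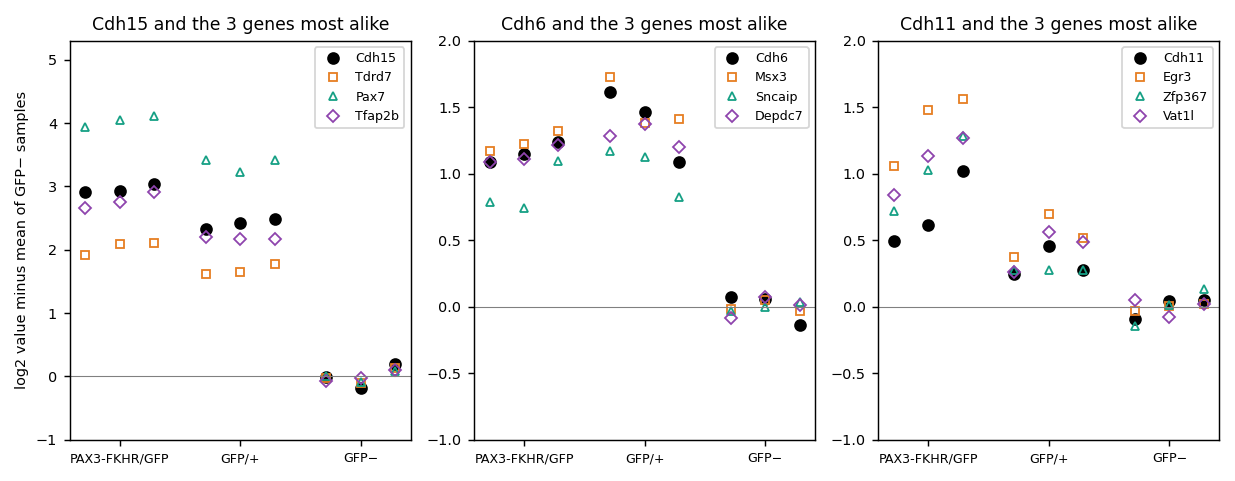
Log2 value minus the mean of the GFP- samples (vertical axis) in each sample (points, replicates 1 to 3 from left to right in each group) for Cdh15, Cdh6 and Cdh11 (black circles) and the 3 genes most alike in pattern (open symbols); the first panel has a longer axis than the others. Cdh15 and its companions are highest in PAX3-FKHR/GFP, Cdh6 is highest in 2 of the GFP/+ samples, and Cdh11 steps down over the 3 groups.

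Among 11 measured genes of the other classical cadherins, 0 were called with PAX3-FKHR by limma or by the local pooled error test. There 1 gene passed an unadjusted p under 0.05. In the GFP sort 1 was called higher and 2 lower. Over all genes, 1.31% were called higher and 0.715% lower with PAX3-FKHR, and 1.92% and 5.05% between GFP/+ and GFP- cells. An unadjusted p under 0.05 was reached by 11.1% of all genes with PAX3-FKHR, by 24.4% between GFP/+ and GFP- cells and by 22.6% between PAX3-FKHR/GFP and GFP- cells. Cdh19, a type II cadherin known from the neural crest and its glia, read 5.50, 5.76 and 5.38 in GFP/+ and 3.23, 3.22 and 3.38 in GFP- samples, a difference of 2.27 ± 0.109 (limma, adjusted p = 5.12e-07). In PAX3-FKHR/GFP samples it read 5.34, 5.34 and 5.85 and differed from GFP/+ by -0.03 ± 0.150.

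The epithelial cadherin Cdh1 and the endothelial cadherin Cdh5 ran the other way. Cdh3, a listed member also known from epithelia, did not. Its brighter probe set had means of 4.24 in GFP/+ and 4.28 in GFP- cells, below the array median throughout. Cdh1 (E-cadherin) read 3.60, 3.24 and 3.15 in GFP/+ and 7.66, 7.44 and 7.50 in GFP- samples, a difference of -4.20 ± 0.121 (limma, adjusted p = 1.36e-08). Cdh5 (VE-cadherin) differed by -1.52 ± 0.126 (adjusted p = 2.98e-05). Both also stand in the marker lists of ectoderm with endoderm and of endothelium. Of those lists, 7 of 8 and 5 of 8 genes were called lower in GFP/+ than in GFP- cells. The mean of the ectoderm and endoderm list ranged from 4.88 to 5.05 in GFP/+, reached at most 5.14 in PAX3-FKHR/GFP and ranged from 7.95 to 8.01 in GFP- samples. Of the 7 genes followed here 0 were called lower in the GFP sort or in PAX3-FKHR/GFP against GFP- cells, where 5.05% and 5.2% of all genes were, so that a count of 0 among 7 is near the background. Cdh7 and Cdh8 lay below the array median in all 9 samples.

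Of 11 protocadherins, relatives of the cadherins that do not bind catenins in the classical way, 2 were called higher and 0 lower with PAX3-FKHR. Between GFP/+ and GFP- cells 0 were called higher and 2 lower, each gene read from its brightest probe set. That of Pcdh7 lay below the array median in all 9 samples and was not called. Other probe sets of Pcdh7 were called lower in GFP/+, at -2.10 ± 0.101 (limma, adjusted p = 5.1e-07) and -1.23 ± 0.133 (0.000195). The mean over the probe sets of Pcdh7 was lower too, at -1.14 (adjusted p = 1.3e-05). Pcdh19 read 8.39, 8.59 and 8.66 in PAX3-FKHR/GFP, 7.24, 7.39 and 7.44 in GFP/+, and 7.13, 7.25 and 7.11 in GFP- samples. It rose by 1.19 ± 0.094 with PAX3-FKHR (limma, adjusted p = 8e-05), while its difference between GFP/+ and GFP- cells was 0.20 ± 0.075 (adjusted p = 0.180). Pcdh17 rose by 0.89 ± 0.153 (adjusted p = 0.0132) and differed by -0.99 ± 0.146 between GFP/+ and GFP- cells (adjusted p = 0.00173). The rise of Pcdh17 by this probe set lost its call when any 1 PAX3-FKHR/GFP sample or GFP/+ replicate 1 was left out, with adjusted p from 0.0520 to 0.118. A second probe set of Pcdh17, 1453070_at, gave 0.97 ± 0.100 (adjusted p = 0.000457). Pcdh12, known from endothelium, read 4.51, 4.34 and 4.17 in GFP/+ and 5.39, 5.35 and 5.28 in GFP- samples and was called lower in GFP/+ (adjusted p = 0.000107), though the mean over its probe sets gave -0.299, under the limit.

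The catenins and other junction adaptors, 14 genes, gave 0 calls with PAX3-FKHR, with 4 at an unadjusted p under 0.05 and 0 calls by the local pooled error test. In the GFP sort 0 were called higher and 3 lower. Ctnnb1 (beta-catenin), which binds the tail of classical cadherins, had means of 12.92 ± 0.157 in PAX3-FKHR/GFP, 12.92 ± 0.094 in GFP/+ and 12.93 ± 0.032 in GFP- cells. Ctnnd2 (delta-catenin) differed by -1.22 ± 0.108 between GFP/+ and GFP- cells (limma, adjusted p = 4.83e-05), and Afdn (afadin), which links nectins to actin, by -0.64 ± 0.076 (adjusted p = 0.000374). The third, Nectin2, differed by -0.51 ± 0.067 (adjusted p = 0.000763) and fell under the limit without GFP/+ replicate 1 or GFP- replicate 1, at -0.485 and -0.459, and at a limit of 1.5-fold. Read as the mean over its probe sets, Afdn was under the limit too, at -0.314. Of 5 measured genes for proteases that act on cadherins, among them Adam10, 0 were called in any comparison, by limma or by the local pooled error test. In the 3 comparisons 1, 3 and 3 of them passed an unadjusted p under 0.05, and Adam10 differed by -0.11 ± 0.101 with PAX3-FKHR.

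Of 12 regulators of the change between epithelium and mesenchyme, 1 was called higher and 0 lower with PAX3-FKHR, and 4 higher and 1 lower between GFP/+ and GFP- cells. Tcf15 (paraxis), needed for the somite to become epithelial, read 10.24, 10.45 and 10.58 in PAX3-FKHR/GFP, 9.47, 9.53 and 9.51 in GFP/+, and 5.91, 6.23 and 6.22 in GFP- samples. It was thus ordered as Cdh15 was, with a rise of 0.92 ± 0.096 with PAX3-FKHR (limma, adjusted p = 0.000485) and 3.38 ± 0.088 in the GFP sort. The homeobox genes Meox2 and Meox1 of the somite were 3.85 ± 0.090 and 2.94 ± 0.063 higher in GFP/+ than in GFP- cells, and Zeb2, a repressor of E-cadherin, 0.78 ± 0.070 higher. Esrp1, a splicing factor of epithelial cells, differed by -3.92 ± 0.076. Snai1 and Snai2, known as repressors of E-cadherin, differed by 0.21 ± 0.109 and -0.05 ± 0.060 and were not called.

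Of 12 genes for myoblast adhesion and fusion, 2 were called higher and 1 lower with PAX3-FKHR. Boc and Cdon, receptors of the immunoglobulin family that associate with cadherins in myoblasts, rose by 0.86 ± 0.086 (limma, adjusted p = 0.000391) and 0.79 ± 0.098 (adjusted p = 0.00155). Boc read as the mean over its probe sets was under the limit, at 0.438. Mymx (myomixer), a fusion protein of muscle, fell by 1.03 ± 0.135 with PAX3-FKHR (adjusted p = 0.00229), from 5.07, 5.21 and 5.63 in GFP/+ to 4.34, 4.26 and 4.23 in PAX3-FKHR/GFP samples. In the GFP sort 4 were called higher and 0 lower, Mymx by 1.73 ± 0.133, Boc by 1.70 ± 0.074, Mymk (myomaker) by 0.91 ± 0.130 and Ncam1 by 0.59 ± 0.065. Ncam1 read as the mean over its probe sets was under the limit, at 0.396. Mymx and Mymk were dim, and every Mymx value with PAX3-FKHR lay below its array median. With only probe sets of a mean of at least 5 kept, 0 of this list were called lower with PAX3-FKHR. At that setting 2 were called higher in the GFP sort. Cdh15, Boc and Cdon were thus called higher with PAX3-FKHR, and the fusion gene Mymx lower, as were 7 of the 8 differentiated muscle markers.

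Over the 6 lists of other cadherins, protocadherins, junction adaptors, proteases, regulators of epithelium and mesenchyme, and adhesion and fusion genes, the median difference with PAX3-FKHR lay between -0.03 for the other cadherins and 0.06 for the adhesion and fusion genes, beside -0.001 over all genes. For these 6 lists in the GFP sort it lay between -0.21 for the proteases and 0.08 for the adhesion and fusion genes, beside 0.008. The brightest probe sets of the 7 cadherin genes had a median of -0.01 with PAX3-FKHR and of 0.09 in the GFP sort.

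**Figure D4:**
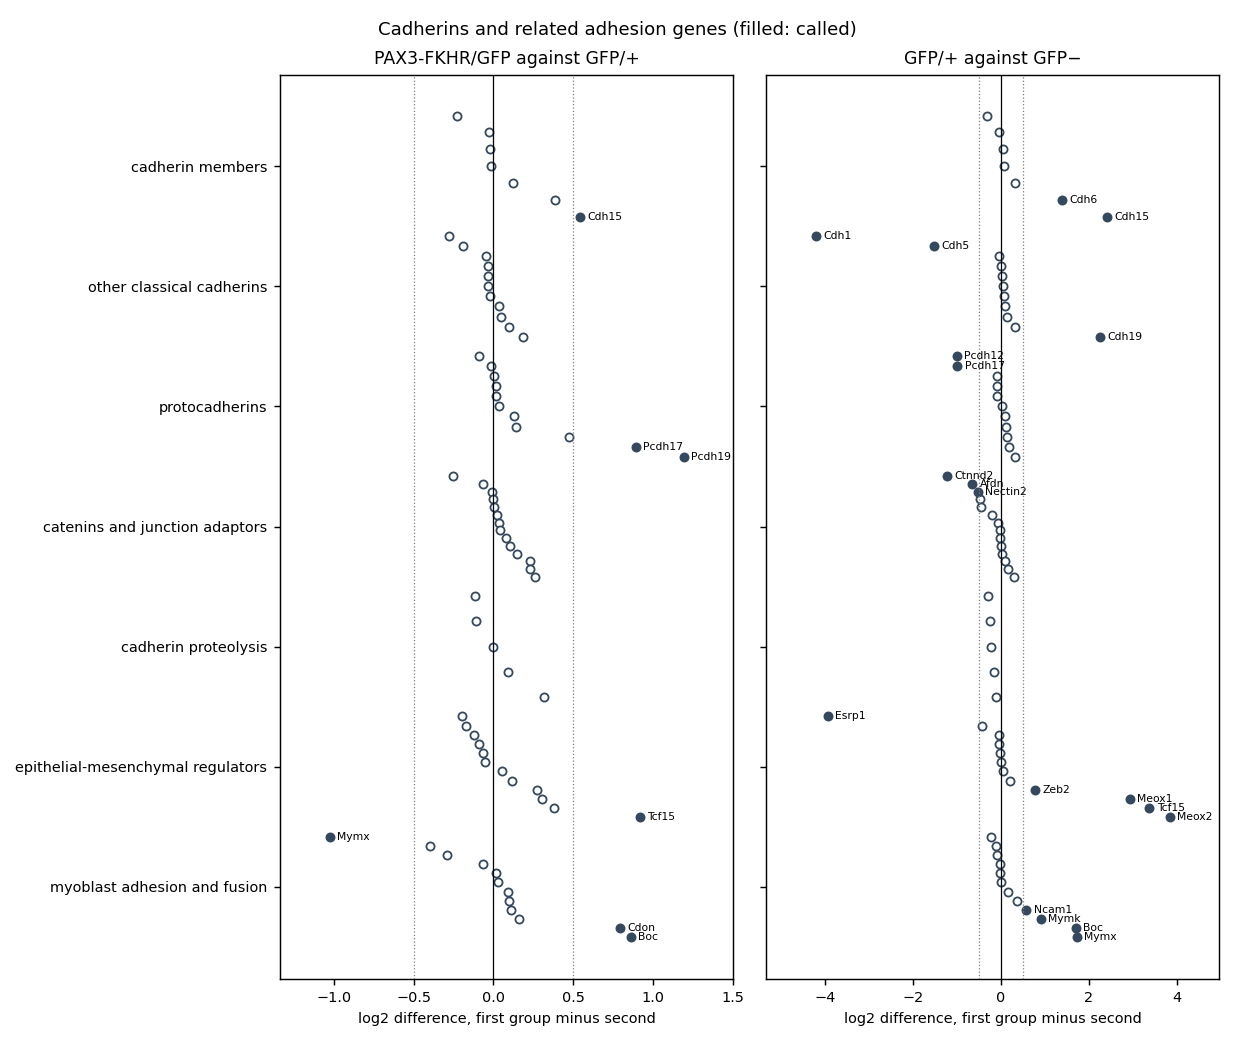
Log2 difference (horizontal axis, first group minus second) of each gene of the cadherins and 6 related lists (rows), each gene read from its brightest probe set, with PAX3-FKHR on the left and in the GFP sort on the right; filled points with a name were called, the dotted lines mark 0.5 log2 units and the panels differ in scale. With PAX3-FKHR Cdh15 is called beside Pcdh17, Pcdh19, Tcf15, Cdon, Boc and, on the low side, Mymx, and in the GFP sort Cdh15 and Cdh6 stand opposite Cdh1 and Cdh5.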

How the data were processed

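RNA of sorted cells was amplified and hybridised to 9 Affymetrix mouse arrays. The authors deposited log2 values made with RMA, which corrects background, quantile normalises the arrays and summarises the probes of each probe set. Its version is not given in the sources used here. Quantile normalisation makes the arrays alike in distribution, so a change common to all transcripts of a group would be hidden. Of 45101 probe sets 64 Affymetrix controls were left out and 45037 tested. By the platform annotation 34945 had 1 gene symbol, 932 several and 9160 were unnamed here, and 0 members lay on a probe set with several symbols. Each gene was read from its single-symbol probe set with the highest mean over the 9 arrays. The filter on absence calls that the study describes was not used here.

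Samples were grouped by the genotype and GFP label. Each comparison was fitted on its 6 samples with limma 3.58.1 in R 4.3.3 (lmFit, eBayes with an intensity trend), two-sided, and p-values were adjusted by Benjamini-Hochberg over the 45037 probe sets. Calls needed an adjusted p under 0.05 and 0.5 log2 units. The study words its fold limit both as 1.5 and as a log2 ratio of 0.5, which differ, since 1.5-fold is 0.585 log2 units. The scripts were tested on simulated data. Alternatives were limma without the trend, a local pooled error test (the study's method, written anew), all 9 samples in 1 fit, centred arrays, a mean of at least 5, the mean over the probe sets of a gene, no log2 limit, the replicate block and each sample left out. A limit of 1.5-fold was added after seeing the data.

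The members and all gene lists were chosen with earlier results of these data known. All member probe sets are named. Of the other lists, up to 4 called genes with the largest difference and the first 2 not called could be named, and for each member with a call the 3 most correlated genes. Ctnnb1, the first gene of its list, and the genes of the markers fall under the same rule. Zeb2 and Sim1 were called but are named beyond this rule, as their differences were not among the largest 4. Some symbols written in the lists were not used here.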

Additional observations from a re-analysis of the deposited data

How the results depend on the processing

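The number of cadherin probe sets called higher with PAX3-FKHR was 1, and over the fits that leave out 1 sample it ranged from 0 to 1, as did the number of genes. The 0 came from leaving out replicate 2 of PAX3-FKHR/GFP or replicate 2 of GFP/+. At a limit of 1.5-fold, an alternative chosen after seeing the data, the number was 0 for probe sets and for genes. The counts against GFP- cells stayed within 1.5 times under every alternative run. Of the differences of single cadherin probe sets under an alternative, 631 kept their direction and their side of the limits, 35 that were not called changed sign or moved, 5 were lost and 1 was gained, and 0 called ones changed sign. The 1 gained was Cdh11 between GFP/+ and GFP- cells with no log2 limit. Read as the mean over its probe sets, Cdh6 differed by 0.990 between GFP/+ and GFP- cells and 0.878 between PAX3-FKHR/GFP and GFP- cells. Of the other genes that could be named, Epb42, an erythroid gene, turned from 0.06 to -0.660 between PAX3-FKHR/GFP and GFP- cells with that reading, since its probe sets disagree.

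Over all probe sets 611 were called with PAX3-FKHR, but 358 without PAX3-FKHR/GFP replicate 2, 383 without GFP/+ replicate 2 and 386 without GFP/+ replicate 3. With no log2 limit the calls were 3947 instead of 2095 between GFP/+ and GFP- cells and 4029 instead of 2411 between PAX3-FKHR/GFP and GFP- cells. Whether samples of equal replicate number were paired is not given in the sources used here. Their deviations from the group means correlated at -0.096 to 0.105, which with 3 samples per group cannot decide it. With the replicate block the cadherin probe sets called higher stayed at 1, 3 and 5 in the 3 comparisons, the difference of Cdh15 with PAX3-FKHR was 0.544 (limma, adjusted p = 0.0127), and over all probe sets 603, 2122 and 2451 were called. With 3 arrays per group, and with Cdh3 and Cdh13 below the array median throughout, small differences could not be resolved.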
